A study of Homo sapiens with 12 samples.

Results

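The matrix metalloproteases, the ADAM and ADAMTS proteases and their inhibitors were followed as 39 genes chosen by name among 28395 gene identifiers in an RNA sequencing count table of BEAS-2B cells, an immortalised line of human bronchial epithelium. The genes were 15 matrix metalloproteases (MMPs), 7 ADAMs, 11 ADAMTSs, 4 tissue inhibitors of metalloproteases (TIMPs) and the serine proteases FAP and DPP4, which are not metalloproteases but also cut matrix fragments and peptides at the cell surface. All 39 were in the table. The 35 with enough reads were tested, and MMP1, MMP7, MMP10 and ADAMTS9 fell below the filter on low counts and are given by their reads.

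There were 4 groups of 3 libraries, all from cells kept without serum or steroid for 24 h first. Cells given both agents received TGF-β1 at 40 pM for 24 h and then dexamethasone at 30 nM for a further 4 h. TGF-β1 cells received the growth factor alone, at 40 pM for 24 h. Dexamethasone cells received the synthetic glucocorticoid alone, at 30 nM for 4 h, and control cells received neither. If the TGF-β1 cells were harvested at 24 h, both agents against TGF-β1 cannot tell dexamethasone apart from the further 4 h. By the labels, the 3 libraries of each group are biological triplicates. Whether control cells received a vehicle is not stated in the labels. These also disagree on the line, since the text on cell growth speaks of A549 lung adenocarcinoma cells where the sample source has BEAS-2B, and all libraries were taken as BEAS-2B.

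MMPs are zinc enzymes that cut collagens, gelatin, laminin and proteoglycans. Most are secreted as inactive proenzymes, and a few, such as MMP14, sit in the membrane. ADAMs are membrane-anchored relatives that release the outer domains of growth factors, cytokine receptors and adhesion proteins, ADAMTSs are secreted relatives that process procollagen or cut aggrecan and other proteoglycans, and TIMPs bind the active site of these enzymes. In airway and lung tissue TGF-β1 is known for driving matrix deposition and remodelling, and glucocorticoids are known for holding down several MMP genes that the AP-1 transcription factor activates.

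The start-site regions of 4 members are shown, because MMP7 and MMP10 lie in a single cluster of MMP genes on chromosome 11 and had opposite read patterns, and because TIMP4 and ADAMTS7 were the members with the highest dexamethasone fold changes past the test. Each run is the 250 bases before the RefSeq start on GRCh38.p14, 5′ to 3′ on the gene's own strand, which is the minus strand in all 4. They lie at chr11:102530748-102530997 (MMP7), chr11:102780629-102780878 (MMP10), chr3:12158913-12159162 (TIMP4) and chr15:78811465-78811714 (ADAMTS7). Capitals mark matches to the AP-1 letters TGANTCA, the SMAD letters CAGACA and the glucocorticoid receptor hexamer AGAACA, searched on both strands.
MMP7: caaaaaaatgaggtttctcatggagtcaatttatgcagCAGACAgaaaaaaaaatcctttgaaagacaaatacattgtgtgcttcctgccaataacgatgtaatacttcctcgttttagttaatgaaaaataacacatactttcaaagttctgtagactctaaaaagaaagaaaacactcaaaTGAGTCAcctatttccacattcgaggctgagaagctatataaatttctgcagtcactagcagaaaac
MMP10: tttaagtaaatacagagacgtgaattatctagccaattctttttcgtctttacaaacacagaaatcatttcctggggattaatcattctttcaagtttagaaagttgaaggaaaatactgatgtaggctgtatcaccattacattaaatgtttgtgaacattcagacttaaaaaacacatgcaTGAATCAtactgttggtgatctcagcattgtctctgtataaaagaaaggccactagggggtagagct
TIMP4: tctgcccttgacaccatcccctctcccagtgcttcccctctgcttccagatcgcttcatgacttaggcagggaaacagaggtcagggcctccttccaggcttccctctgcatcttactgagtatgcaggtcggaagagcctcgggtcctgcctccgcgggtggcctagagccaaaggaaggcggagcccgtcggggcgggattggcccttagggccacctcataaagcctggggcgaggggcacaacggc
ADAMTS7: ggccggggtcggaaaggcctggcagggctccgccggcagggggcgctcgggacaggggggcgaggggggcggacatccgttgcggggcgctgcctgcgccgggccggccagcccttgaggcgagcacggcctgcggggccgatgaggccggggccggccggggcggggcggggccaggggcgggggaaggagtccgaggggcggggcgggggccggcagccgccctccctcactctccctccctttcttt

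With positions counted back from -1, the base before the start, MMP7 held TGAGTCA at positions -67 to -61 and CAGACA at -212 to -207. MMP10 held TGAATCA also at positions -67 to -61. No letters of these 3 motifs were found in the TIMP4 and ADAMTS7 windows. RefSeq windows were at hand for 22 of the 39 members. The rest, among them MMP1, MMP2, MMP3, MMP9, MMP13, TIMP2 and FAP, had none and were not searched. The AP-1 letters stood in the windows of 3 of these 22 genes (MMP7, MMP10 and ADAMTS12) and in 6.57% of all 35116 windows searched. The SMAD letters stood in 1 of 22 and in 13.6% of all windows, and the glucocorticoid receptor hexamer in 2 of 22 (MMP11 and MMP24) and in 12.4% of all windows. The ETS core GGAA, which is a short run of 4 letters, stood in 22 of 22 and in 92.7% of all windows. A match to a few letters is a description of the sequence and not a bound site.

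Total counts ran from 5861591 to 7008203 in replicates 1 and 2 of each group and from 17968961 to 19727235 in replicate 3. Levels are CPM, each gene's share of its library's counts after scaling between libraries, and each effect is a log2 fold change beside its standard error (SE). Tests are edgeR's quasi-likelihood tests, and a call needs a p below 0.05 after Benjamini-Hochberg adjustment over 13469 genes. Libraries with the same replicate number deviated together. Replicate 2 had the lowest MMP14, TIMP2, FAP and DPP4 levels and the highest MMP9 and MMP16 levels of its group in all 4 groups. A second fit took the replicate number as a block and added 31 member calls. Only part of these are given below with their p in that fit. The rest concern cells given both agents. Against control, ADAM9 and MMP19 were then higher and ADAMTS1 and MMP16 lower. Against dexamethasone, ADAM17, ADAMTS1, ADAMTS2, ADAMTS14 and MMP11 were higher and ADAM8 and ADAM9 lower. Against TGF-β1, ADAM17 was higher. The airway epithelial markers KRT5, KRT8, KRT18, KRT19, CDH1 and EPCAM were present, with a summed level of 1729 to 2572 CPM with both agents, 1155 to 1704 with TGF-β1, 2087 to 2683 with dexamethasone and 1681 to 1858 in control cells. They did not move together, since with both agents against control KRT18 (-1.16, SE 0.08), KRT19 (-1.54, SE 0.15) and CDH1 (-0.33, SE 0.11) fell and KRT8 rose (0.48, SE 0.12). KRT5, a large part of the sum, averaged 967 CPM with both agents, 602 with TGF-β1, 849 with dexamethasone and 502 in control cells. Its higher level with both agents than in control cells did not pass the test. In bulk RNA, fewer cells of a type and less RNA per cell cannot be told apart.

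The members together took 0.439% to 0.564% of all counts with both agents, 0.509% to 0.652% with TGF-β1, 0.304% to 0.323% with dexamethasone and 0.32% to 0.343% in control cells. Every library given TGF-β1 therefore lay above every library that was not. Per length of the gene's joined exons, the most abundant member over the 12 libraries was the inhibitor TIMP2 with a mean of 382 RPKM, the CPM divided by that length in kilobases. It was followed by MMP14 with 176, TIMP1 with 140, MMP2 with 105 and ADAM9 with 64.7 RPKM. The order differed between groups, and in control cells TIMP2 with 289 RPKM was followed by TIMP1 with 113, MMP14 with 96.8, ADAM9 with 59.1, ADAM15 with 45 and MMP2 with 36.5 RPKM. The lowest tested member on this scale was ADAMTS4 with 0.157 RPKM.

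TGF-β1 raised 19 of the 35 tested members. FAP, MMP3, MMP9, ADAM19, ADAM12, MMP2 and ADAMTS6 had log2 fold changes of 2.38 to 5.55 past the test, and MMP13 was read in all TGF-β1 libraries and in no control library. Together with 4 that fell these make 65.7%, beside 32.8% of all 13469 genes (16.2% higher and 16.6% lower). The median log2 fold change was 0.79 over the tested members and -0.009 over all genes. By family, 6 of 12 MMPs rose and 2 fell, 2 of 7 ADAMs rose and 2 fell, 7 of 10 ADAMTSs rose, 3 of 4 TIMPs rose, and FAP rose. The 4 that fell were the membrane-type MMP15 and MMP24, ADAM8 and ADAM15. MMP3, MMP9, MMP13 and ADAMTS4 passed the filter on low counts only through libraries given TGF-β1. Their rises were thus favoured by the filter, here and where both agents are set against dexamethasone or control, and do not add support to these counts.

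Dexamethasone alone changed fewer members, in both directions. TIMP4, TIMP3, DPP4, MMP15, ADAMTS7, ADAMTS2 and ADAM9 rose, and ADAM19, ADAMTS1, ADAMTS6 and ADAMTS10 fell. These 7 and 4 of 35 make 31.4%, beside 10.4% of all genes (5.54% higher and 4.9% lower), and the median log2 fold change was -0.09 over the tested members and 0.004 over all genes. With the replicate block 9 rose and 8 fell, beside 10.8% and 11.4% of all genes in that fit, the added falls being MMP14, MMP16, ADAM8 and ADAM10 and the added rises ADAM15 and ADAM17.

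In cells already given TGF-β1, dexamethasone raised MMP15, ADAM15, ADAMTS7, TIMP3, TIMP4 and DPP4 and lowered ADAM19 and ADAMTS1. That is 6 higher and 2 lower of 35, or 22.9%, beside 8.11% of all genes (5.09% higher and 3.01% lower). With the replicate block 8 were higher and 7 lower, beside 9.47% and 8% of all genes in that fit. MMP3, MMP9, MMP13, MMP14 and MMP16 were then among the lower ones, and MMP15 and MMP19 among the higher ones.

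Set against dexamethasone cells, cells given both agents had 16 members higher and 4 lower, or 57.1%, beside 32.3% of all genes (15.9% higher and 16.4% lower). With the replicate block 22 were higher and 6 lower, beside 24% and 26% (49.9% in all) of all genes. Against control cells, 22 were higher and 3 lower, or 71.4%, beside 36.6% of all genes (18.5% higher and 18.1% lower). The 3 lower ones were MMP24, ADAM8 and ADAM15, and with the replicate block 25 were higher and 6 lower, beside 26.5% and 26.7% (53.1% in all) of all genes. The ADAM15 call (adjusted p = 0.0415) was lost without any 1 of the control libraries or without replicate 1 or 3 of both agents, over alternatives of 5.21e-06 to 0.166. The 4 TIMPs were also called higher, but with scaling by total counts the calls of TIMP1 (adjusted p = 0.136), TIMP2 (0.103) and TIMP3 (0.129) were lost. Those of TIMP1 and TIMP2 were lost as well without control replicate 2 or 3, without replicate 1 or 3 of both agents and with no filter on low counts, and that of TIMP3 without control replicate 3. The alternatives ran up to 0.136, 0.132 and 0.129 for TIMP1, TIMP2 and TIMP3. When libraries were scaled by total counts alone, the median of all genes shifted to -0.217 for TGF-β1 against control, to -0.227 for both against dexamethasone and to -0.271 for both against control, so small rises are relative to such a shift.

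**Figure D1:**
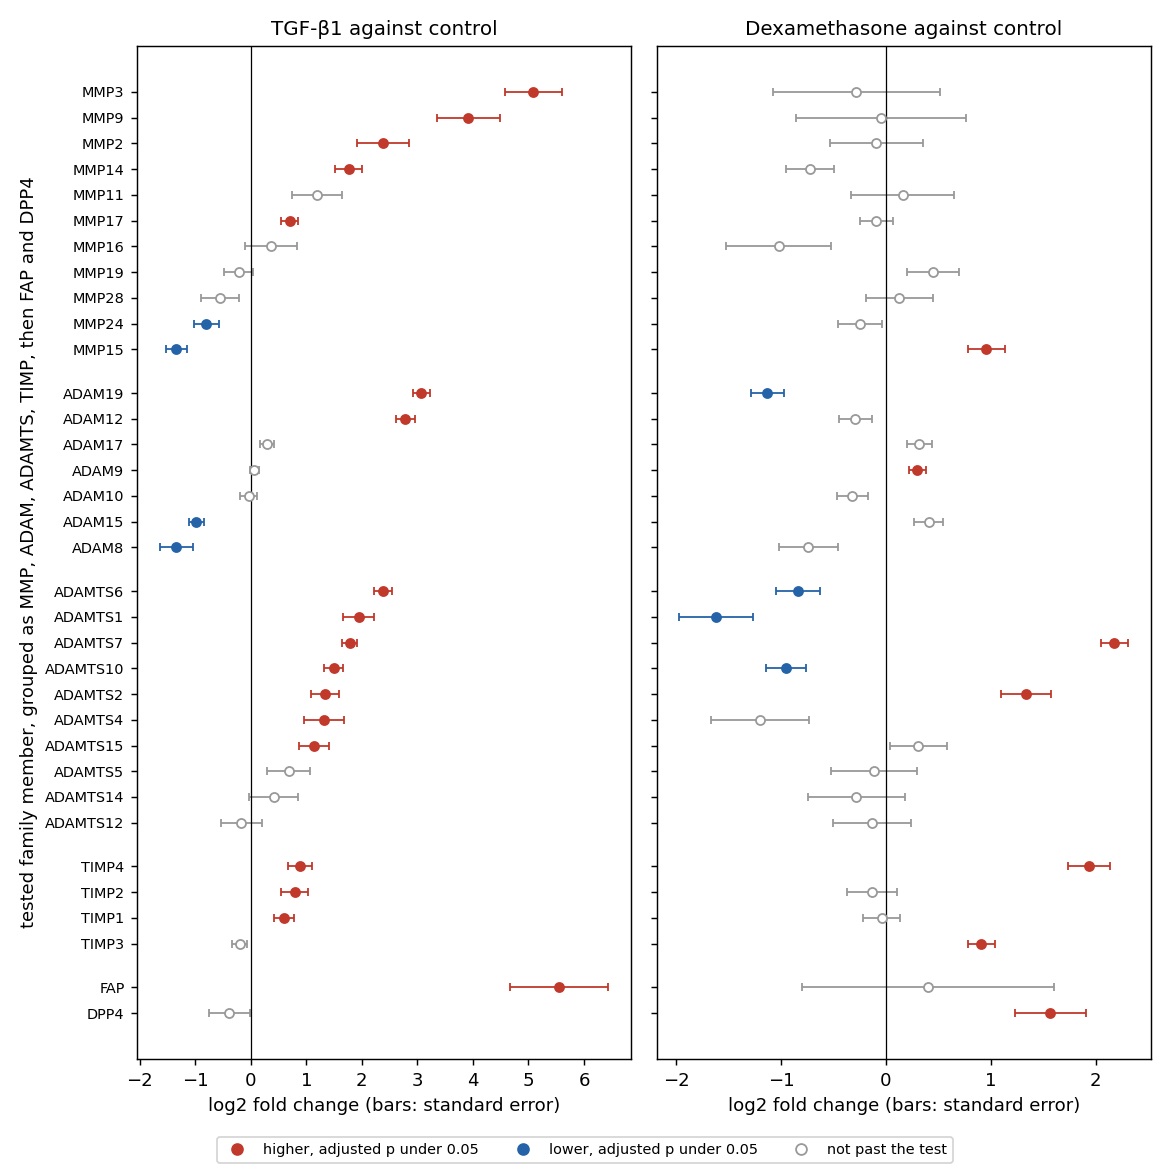
Log2 fold changes of 34 tested members (points) with standard errors (bars) for TGF-β1 against control on the left and dexamethasone against control on the right. MMP13 is left out because no control library had a read of it. In the left panel most points of the MMP and ADAMTS families lie to the right of 0, with FAP at 5.55 and MMP3 at 5.09, and in the right panel ADAMTS7 at 2.18 and TIMP4 at 1.94 lie farthest right.

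MMP2 (chromosome 16, 55478830 to 55506691), the gelatinase that also cuts basement membrane collagen, was the most abundant secreted MMP. It had 738, 755 and 780.3 CPM with both agents, 870.2, 899.9 and 912 CPM with TGF-β1, 127, 269 and 89.3 CPM with dexamethasone and 128, 289 and 101 CPM in control cells. The libraries given TGF-β1 lay close together and did not overlap the others, whereas replicate 2 stood above the other libraries in both of the groups without TGF-β1. The TGF-β1 effect was 2.38 (SE 0.46, adjusted p = 0.00296), a 5.21-fold difference. With dexamethasone added to TGF-β1, all 3 libraries lay below those of TGF-β1 alone, but the difference of -0.24 (SE 0.43, adjusted p = 0.899) did not pass the test.

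MMP9, the other gelatinase, was scarce. Its levels were 3.4, 9.22 and 5.41 CPM with both agents, 7.88, 13.4 and 8.24 CPM with TGF-β1, 0.444, 1.34 and 0.383 CPM with dexamethasone and 0.303, 1.71 and 0.338 CPM in control cells. TGF-β1 raised it by 3.92 (SE 0.56, adjusted p = 0.000156), or 15.2-fold, with no overlap. Adding dexamethasone to TGF-β1 gave -0.72 (SE 0.42, adjusted p = 0.447, and 0.0156 with the replicate block), and the level was lower in 3 of 3 number-matched pairs.

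MMP3, or stromelysin 1, cuts proteoglycans and activates other proenzymes. It had 18.6, 8.01 and 12.3 CPM with both agents, 36.1, 16.1 and 33.1 CPM with TGF-β1, 1.18, 1.19 and 0.287 CPM with dexamethasone and 1.36, 0.931 and 0.58 CPM in control cells. All 6 libraries given TGF-β1 lay above all 6 that were not. The TGF-β1 effect was 5.09 (SE 0.51, adjusted p = 1.23e-05), the highest of the MMPs that had reads in the control group. Dexamethasone after TGF-β1 gave -1.14 (SE 0.36, adjusted p = 0.0824, and 0.000395 with the replicate block). The log2 ratios within numbers 1, 2 and 3 were -0.95, -1.01 and -1.43, so each library with both agents was at a lower level than its TGF-β1 counterpart, although replicate 2 of TGF-β1 lay below replicate 1 of both. Without TGF-β1 replicate 2 this difference passed the test (adjusted p = 0.0127), and its alternatives ran from 0.000395 to 0.269.

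MMP13, a collagenase, was nearly silent without TGF-β1. It had 1.3, 2.44 and 1.16 CPM with both agents, 3.85, 9.12 and 1.85 CPM with TGF-β1, 0, 0 and 0.0957 CPM with dexamethasone and 0 CPM in the 3 control libraries. In reads, that is 41 with both agents, 114 with TGF-β1, 2 with dexamethasone and 0 in control cells. Taking 3 reads over the control group as the floor, MMP13 was at least 42.7-fold higher with TGF-β1 and at least 16.3-fold higher with both agents than in control cells. Without control replicate 3, the deepest of that group, these bounds were 16.5-fold and 6.28-fold, and the first was 26.3-fold without TGF-β1 replicate 2 and 74.8-fold without TGF-β1 replicate 3. Both agents against dexamethasone gave a ratio of 24.9 (95% counting interval 6.45 to 212, and a bound of at least 6.5-fold without dexamethasone replicate 3), and its adjusted p of 0.0109 became 0.0682 without dexamethasone replicate 3, the highest over the alternatives, which began at 5.22e-05. Both agents against TGF-β1 gave -1.59 (SE 0.59, adjusted p = 0.162, and 0.00503 with the replicate block).

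MMP3 and MMP13 lie in a cluster of 9 MMP genes on chromosome 11, from 102520508 to 102955732, of which 5 are members. The other members there are MMP7, MMP10 and MMP1. The interstitial collagenase MMP1 had 12 reads with both agents, 40 with TGF-β1, 0 with dexamethasone and 9 in control cells. A second stromelysin, MMP10, had 7 reads with both agents, 19 with TGF-β1, 0 with dexamethasone and 0 in control cells, so it was at least 7.12-fold higher with TGF-β1 than in control cells on the same floor. That bound was 3.82-fold without TGF-β1 replicate 2, which held 11 of the 19 reads, 2.75-fold without control replicate 3 and 11.1-fold without TGF-β1 replicate 3. MMP7, also called matrilysin, ran the other way, with 11 reads with both agents, 0 with TGF-β1, 31 with dexamethasone and 1 in control cells. Dexamethasone against control gave MMP7 a ratio of 30.4 (95% counting interval 5.07 to 1240), which was 11.8 without control replicate 3 and a bound of at least 8.16-fold without control replicate 1. MMP1 was at least 3.06-fold lower with dexamethasone than in control cells, a bound of 1.2-fold without dexamethasone replicate 3 and 1.76-fold without control replicate 3. Control replicate 1 had 0 reads of MMP1 as well. The MMP20, MMP27, MMP8 and MMP12 genes of the cluster had at most 4 reads in any group. Within the cluster, reads of MMP3, MMP13, MMP10 and MMP1 were thus most numerous with TGF-β1, and reads of MMP7 with dexamethasone. Such intervals and floors reflect counting error alone, as molecules were not tagged and 1 molecule can give several reads. A bound from a floor allows for that error only in the group without reads, and takes the reads of the other group as they stand.

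Among the membrane-type MMPs, MMP14 (chromosome 14, 22836585 to 22847758) cuts fibrillar collagen at the cell surface and activates pro-MMP2. It had 1019, 543 and 922 CPM with both agents, 1395, 884 and 1385 CPM with TGF-β1, 250.4, 189 and 219 CPM with dexamethasone and 404, 336 and 343 CPM in control cells. No library of a group given TGF-β1 overlapped a group that was not, and every dexamethasone library lay below every control library. The TGF-β1 effect was 1.76 (SE 0.24, adjusted p = 0.000168). The dexamethasone effect was -0.72 alone (SE 0.23, adjusted p = 0.0813, and 0.0113 with the replicate block) and -0.56 after TGF-β1 (SE 0.23, adjusted p = 0.225, and 0.0326 with the replicate block). With both agents the level stayed above control by 1.20 (SE 0.23, adjusted p = 0.00193).

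MMP15, another membrane-type enzyme, moved opposite to MMP14. Its levels were 60.6, 68 and 64.5 CPM with both agents, 26.8, 14.2 and 19.4 CPM with TGF-β1, 95.1, 120 and 82.2 CPM with dexamethasone and 55.2, 54.2 and 43.9 CPM in control cells. The 4 groups did not overlap. TGF-β1 lowered it by 1.34 on the log2 scale (-1.34, SE 0.19, adjusted p = 0.000149), and dexamethasone raised it by 0.96 alone (SE 0.18, adjusted p = 0.0027) and by 1.69 after TGF-β1 (SE 0.19, adjusted p = 6.41e-05). Both agents against control gave 0.34 (95% interval -0.05 to 0.73, adjusted p = 0.157).

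MMP24 is a membrane-type enzyme studied mostly in neurons. It had 10.2, 11.1 and 9.06 CPM with both agents, 10.5, 17.5 and 9.65 CPM with TGF-β1, 16.3, 21 and 16.9 CPM with dexamethasone and 20.8, 27 and 17.2 CPM in control cells. It fell with TGF-β1 by 0.80 (-0.80, SE 0.22, adjusted p = 0.0128) and with both agents against control by 1.09 (-1.09, SE 0.22, adjusted p = 0.00169). The TGF-β1 call was lost without control replicate 2 or TGF-β1 replicate 1 or 3, over alternatives of 1.21e-05 to 0.0755, and replicate 2 of TGF-β1 overlapped the control range. MMP17, anchored by a lipid, rose with TGF-β1 by 0.70 (SE 0.15, adjusted p = 0.0031) and ran from 6.65 to 15.4 CPM over the 12 libraries. MMP16 ran from 2.11 to 15.5 CPM, with the highest value of each group in replicate 2, and gave -1.02 with dexamethasone against control (SE 0.50, adjusted p = 0.296, and 0.00148 with the replicate block). After TGF-β1 dexamethasone gave MMP16 -1.09 (SE 0.49, adjusted p = 0.286, and 0.00151 with the block).

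MMP11, or stromelysin 3, is activated inside the cell by furin. Its levels were 3.73, 2.79 and 3.83 CPM with both agents, 4.38, 2.01 and 3.59 CPM with TGF-β1, 2.51, 1.64 and 1.15 CPM with dexamethasone and 2.58, 0.31 and 1.45 CPM in control cells. TGF-β1 against control overlapped and gave 1.20 (SE 0.45, adjusted p = 0.0553, and 0.00306 with the replicate block). Both agents against control gave 1.27 (SE 0.45, adjusted p = 0.0399), a call lost without control replicate 2 or 3 or without replicate 1 or 3 of both agents, over alternatives of 0.00178 to 0.124. Scaling by total counts (adjusted p = 0.0705) and leaving out replicate 2 in all 4 groups (0.0516) also lost it. The remaining tested MMPs, MMP19 (2.24 to 5.8 CPM) and MMP28 (5.44 to 15.7 CPM), passed no test. With the block MMP19 rose with both agents against TGF-β1 (0.73, SE 0.25, adjusted p = 0.115, and 0.0248 with the block). Without replicate 2 of both agents, which had 15.7 CPM where the other 2 had 6 and 5.54, MMP28 fell against control (adjusted p = 0.0194, and 0.719 with all libraries).

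**Figure D2:**
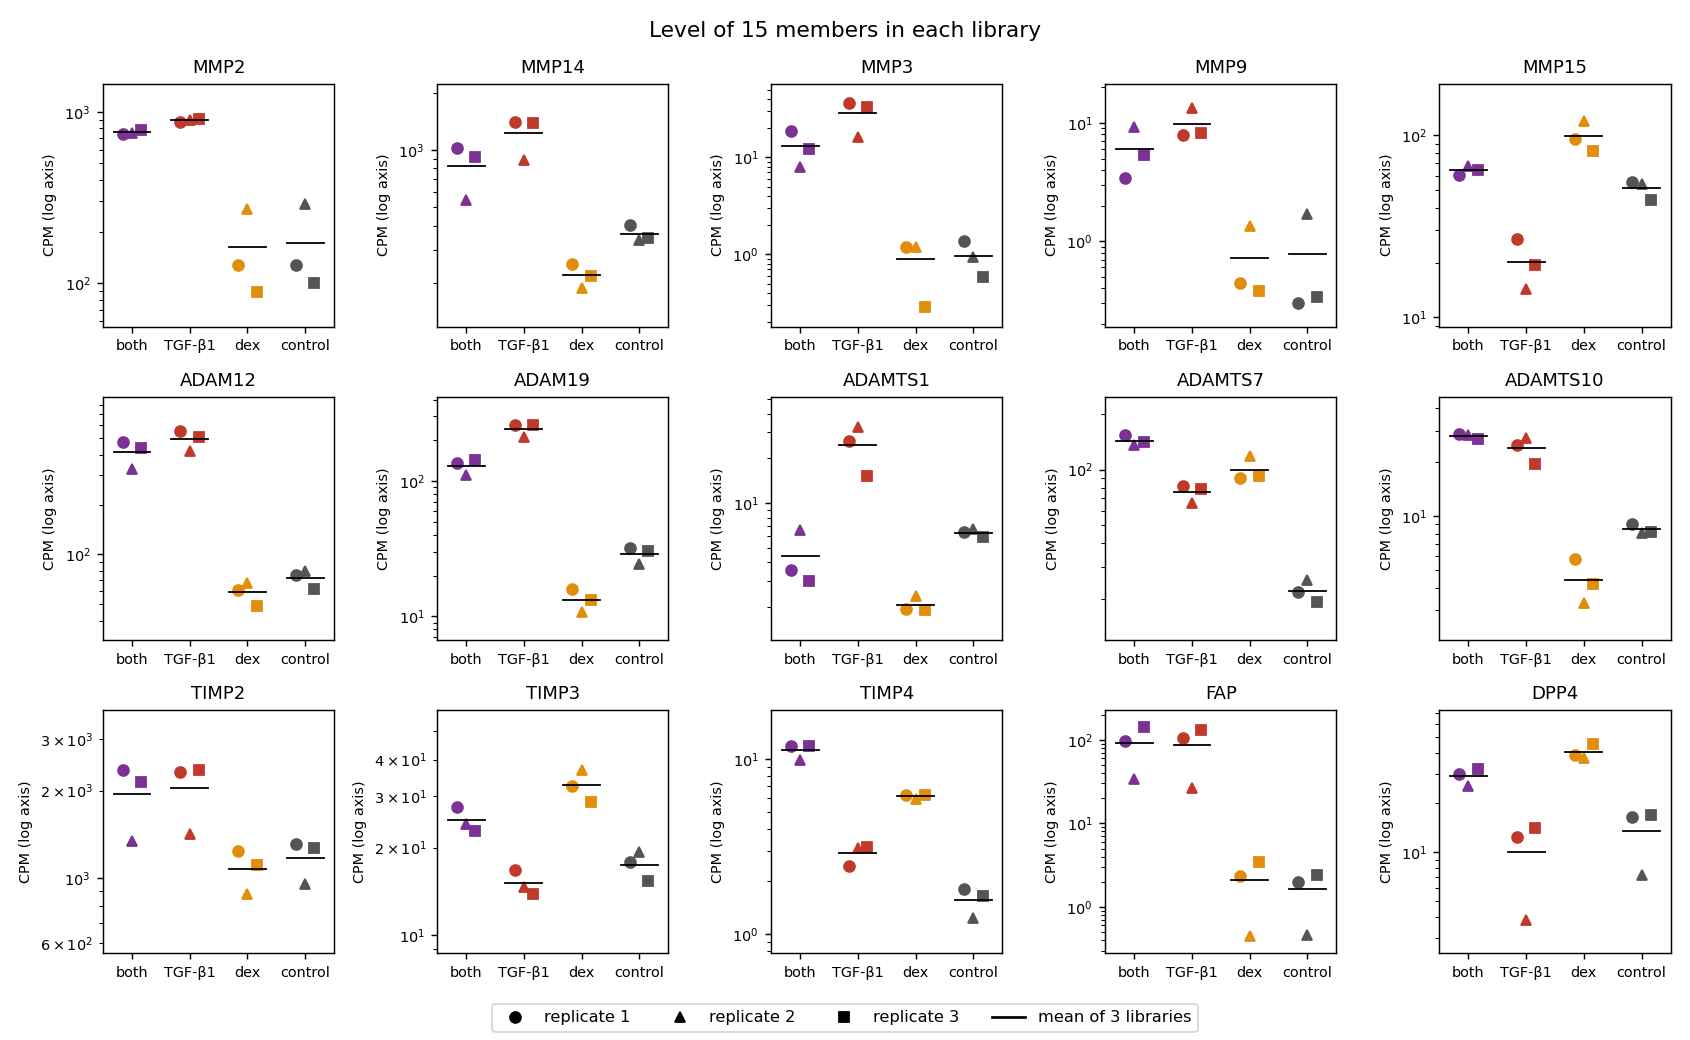
CPM (log axis, own range in each panel) of 15 members in each of 12 libraries, with the groups both, TGF-β1, dexamethasone and control from left to right, a symbol per replicate number and a line at the mean of 3 libraries. MMP2, MMP14, MMP3, MMP9, ADAM12, ADAM19 and FAP separate the libraries given TGF-β1 from the others, and TIMP3, TIMP4 and DPP4 are higher in each group given dexamethasone than in its counterpart without it.

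Among the ADAMs, TGF-β1 raised ADAM12 and ADAM19, which shed growth factors such as HB-EGF and neuregulin. ADAM12 had 479, 328 and 440.1 CPM with both agents, 556, 422 and 508 CPM with TGF-β1, 61.4, 66.9 and 48.9 CPM with dexamethasone and 75.35, 79.3 and 62.2 CPM in control cells. The separation between libraries with and without TGF-β1 was complete, at 2.78 for TGF-β1 against control (SE 0.17, adjusted p = 8.86e-08), a 6.89-fold rise. The dexamethasone effects on ADAM12 did not pass the test, at -0.29 alone (95% interval -0.65 to 0.06) and -0.25 after TGF-β1 (95% interval -0.59 to 0.08).

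ADAM19 responded to both agents in opposite directions. It had 135.5, 111 and 143 CPM with both agents, 258, 213 and 261 CPM with TGF-β1, 15.8, 10.7 and 13.2 CPM with dexamethasone and 32, 24.2 and 30.5 CPM in control cells. None of the 4 groups overlapped another. TGF-β1 raised it by 3.07 (SE 0.15, adjusted p = 7.75e-09), and dexamethasone lowered it by 1.13 alone (-1.13, SE 0.16, adjusted p = 0.000178) and by 0.91 after TGF-β1 (-0.91, SE 0.13, adjusted p = 0.00038). These 2 dexamethasone effects differed by 0.22 (95% interval -0.21 to 0.66), which did not pass the test of the interaction.

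ADAM8, a protease best known from leukocytes, had 2.11, 1.74 and 1.89 CPM with both agents, 1.4, 3.71 and 1.74 CPM with TGF-β1, 3.55, 4.17 and 2.68 CPM with dexamethasone and 5.16, 6.67 and 5.12 CPM in control cells. The control libraries lay above all others. It fell with TGF-β1 by 1.34 (-1.34, SE 0.30, adjusted p = 0.00367), and dexamethasone alone gave -0.74 (SE 0.28, adjusted p = 0.134, and 0.0125 with the replicate block). Leukocyte markers (PTPRC, CD14, ITGAM, CSF1R, CD3E and MS4A1) summed to 7.83 to 11.8 CPM with both agents, 9.9 to 12.8 with TGF-β1, 6.32 to 7.29 with dexamethasone and 6.04 to 8.54 in control cells. With TGF-β1 the monocyte marker CD14 fell (-1.71, SE 0.32), as ADAM8 did, and CSF1R rose (3.04, SE 0.31). The general leukocyte marker PTPRC had 8 reads in all 12 libraries. The part of these markers in the ADAM8 result was not tested.

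ADAM9, a widely expressed sheddase, had the highest CPM of the ADAMs in dexamethasone and control cells, and ADAM12 in the groups given TGF-β1. It had 359, 411 and 388.5 CPM with both agents, 336, 369.8 and 390 CPM with TGF-β1, 400.4, 464 and 431 CPM with dexamethasone and 342, 358 and 353 CPM in control cells. Dexamethasone alone raised it by only 0.30 (SE 0.08, adjusted p = 0.0293). That call was lost without any 1 of the control libraries or without dexamethasone replicate 2 or 3, and the alternatives ran from 7.69e-05 to 0.151.

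ADAM10 and ADAM17 are the main sheddases of Notch, of EGF-family ligands and of TNF. ADAM10 ran from 142 to 218 CPM and passed no test without the block. With the block it fell with dexamethasone alone (-0.32, SE 0.15, adjusted p = 0.254, and 0.000372 with the block), was higher with both agents than with dexamethasone (0.28, SE 0.15, adjusted p = 0.178, and 0.000623 with the block) and passed the interaction (0.32, SE 0.21, adjusted p = 1, and 0.0287 with the block). ADAM17 ran from 66.25 to 121 CPM and rose with both agents against control by 0.59 (SE 0.12, adjusted p = 0.00133). Its effects of 0.29 with TGF-β1 (SE 0.12, adjusted p = 0.0731, and 0.00139 in the blocked fit) and of 0.32 with dexamethasone (SE 0.12, adjusted p = 0.116, and 0.00181 with the block) passed only with the block. The exons of ADAM17 overlap those of IAH1 on the opposite strand over 1257 bases. IAH1 held 3496 reads beside 11221 of ADAM17 over the 12 libraries, and reads in the overlap could not be told apart, because the library kit does not mark strand. ADAM15, which carries an integrin-binding motif, ran from 68.5 to 226 CPM and fell with TGF-β1 by 0.98 (-0.98, SE 0.14, adjusted p = 0.000114). Dexamethasone alone gave ADAM15 0.41 (SE 0.14, adjusted p = 0.0809, and 1.3e-05 with the block). After TGF-β1, it raised ADAM15 by 0.59 (SE 0.14, adjusted p = 0.0167), a call lost without TGF-β1 replicate 1 or 3 or replicate 2 of both agents, over alternatives of 3.59e-07 to 0.082.

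The ADAMTS family held members that moved with 1 agent, with both in the same direction and with both in opposite directions. ADAMTS6, which acts on fibrillin-rich matrix, had 28, 24.5 and 23.3 CPM with both agents, 30.5, 30.1 and 27 CPM with TGF-β1, 3.99, 3.42 and 2.49 CPM with dexamethasone and 4.7, 7.14 and 5.17 CPM in control cells. TGF-β1 raised it by 2.38 (SE 0.17, adjusted p = 2.01e-07), with no overlap. Dexamethasone alone lowered it by 0.84 (-0.84, SE 0.21, adjusted p = 0.0163), a call lost without control replicate 2 or dexamethasone replicate 3, over alternatives of 0.00137 to 0.157. The call was lost too in a fit of only the groups compared (adjusted p = 0.0743) and without replicate 2 in all 4 groups (0.0905).

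ADAMTS2 removes the amino propeptide of fibrillar procollagens, a step in collagen fibre assembly. It had 16.4, 12.2 and 13.2 CPM with both agents, 9.81, 7.11 and 10.7 CPM with TGF-β1, 9.61, 12.05 and 7.37 CPM with dexamethasone and 4.85, 3.73 and 3.04 CPM in control cells. All treated libraries lay above all control libraries. TGF-β1 alone gave 1.33 (SE 0.25, adjusted p = 0.000839), dexamethasone alone 1.34 (SE 0.24, adjusted p = 0.00183), and both agents 1.90 against control (SE 0.24, adjusted p = 2.93e-05).

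ADAMTS1, an aggrecan- and versican-cutting enzyme, was the member that dexamethasone lowered most after TGF-β1. It had 3.56, 6.61 and 2.98 CPM with both agents, 26.1, 32.5 and 15.3 CPM with TGF-β1, 1.92, 2.38 and 1.92 CPM with dexamethasone and 6.37, 6.67 and 5.94 CPM in control cells. The TGF-β1 libraries stood above all others and the dexamethasone libraries below all others. TGF-β1 gave 1.94 (SE 0.28, adjusted p = 0.000134), and dexamethasone gave -1.62 alone (SE 0.35, adjusted p = 0.00699) and -2.55 after TGF-β1 (SE 0.30, adjusted p = 6.85e-05). Without dexamethasone replicate 3 the effect of dexamethasone alone lost its call, with alternatives of 1.91e-05 to 0.0606. ADAMTS5, whose gene is the next on chromosome 21 across a gap of 72.5 kb, ran from 0.739 to 2.47 CPM and passed no test.

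ADAMTS4, or aggrecanase 1, had 4.05, 2.26 and 2.86 CPM with both agents, 2.98, 1.55 and 2.08 CPM with TGF-β1, 0.296, 0.149 and 0.479 CPM with dexamethasone and 0.91, 0.776 and 0.869 CPM in control cells. The libraries with TGF-β1 lay above those without it. TGF-β1 gave 1.32 (SE 0.36, adjusted p = 0.0117, alternatives 0.00193 to 0.0556, the highest without control replicate 3), and both agents against dexamethasone gave 3.01 (SE 0.40, adjusted p = 5.34e-05). ADAMTS15, which also cuts versican, had 45.4, 53.8 and 33.6 CPM with both agents, 42.05, 67.9 and 41.4 CPM with TGF-β1, 22, 25.9 and 35.2 CPM with dexamethasone and 18.6, 30.7 and 20.04 CPM in control cells. It rose with TGF-β1 by 1.13 (SE 0.27, adjusted p = 0.00701). ADAMTS12 (24.8 to 59.8 CPM) and ADAMTS14 (8.38 to 31.6 CPM) passed no test without the block, and ADAMTS14 rose under it with TGF-β1 (0.41, SE 0.44, adjusted p = 0.521, and 0.0421 with the block). It did so too in cells given both agents, against control (0.76, SE 0.44, adjusted p = 0.208, and 0.000558 with the block). ADAMTS12 fell with both agents against control under it (-0.34, SE 0.38, adjusted p = 0.529, and 0.00269 with the block). ADAMTS9, below the filter, had 25 reads with both agents, 2 with TGF-β1, 30 with dexamethasone and 9 in control cells. For both agents against TGF-β1 this is a ratio of 13.2 (95% counting interval 3.3 to 115). It was 10.1 without replicate 3 of both agents and 20.8 without TGF-β1 replicate 2. In replicate 2 ADAMTS9 had 1 read with both agents and 1 with TGF-β1.

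ADAMTS7 (chromosome 15, 78759206 to 78811464), which cuts cartilage oligomeric matrix protein, was raised by each agent. It had 154, 135 and 140.1 CPM with both agents, 81.3, 65.9 and 79 CPM with TGF-β1, 89.6, 118 and 92.1 CPM with dexamethasone and 22, 25.4 and 19.4 CPM in control cells. The control libraries were lowest and the libraries with both agents highest, with no overlap. Dexamethasone gave 2.18 without TGF-β1 (SE 0.13, adjusted p = 9.62e-08) and 0.92 after it (SE 0.12, adjusted p = 0.000166). The difference between these, the interaction, was -1.26 (SE 0.18, adjusted p = 0.00356). Put the other way round, the TGF-β1 effect was 0.52 in the presence of dexamethasone (SE 0.12, adjusted p = 0.00467) and 1.78 without it (SE 0.13, adjusted p = 2.77e-07). A near-copy, the pseudogene ADAMTS7P1, held 213 reads beside 10361 of ADAMTS7. By group the copy had 84 reads with both agents, 42 with TGF-β1, 77 with dexamethasone and 10 in control cells. How many ADAMTS7 reads could have come from the copy, or the reverse, cannot be told from the counts.

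ADAMTS10, which binds fibrillin microfibrils, was the other member with an interaction past the test. It had 28.8, 28.4 and 27.1 CPM with both agents, 24.9, 27.4 and 19.5 CPM with TGF-β1, 5.77, 3.27 and 4.17 CPM with dexamethasone and 9.1, 8.07 and 8.16 CPM in control cells. Dexamethasone alone left all 3 libraries below the control range, at -0.95 (SE 0.19, adjusted p = 0.00381), whereas after TGF-β1 the effect was 0.25 (SE 0.15, adjusted p = 0.485) with overlapping libraries. The interaction was 1.19 (SE 0.24, adjusted p = 0.0332). It stayed past the threshold when either TGF-β1 replicate 2 or dexamethasone replicate 1 was left out, was lost when any 1 of the other 10 libraries was, and over the alternatives its adjusted p ran from 0.000543 to 0.142.

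Over all tested members 1 interaction was higher and 1 lower, or 5.71%, beside 0.884% of all genes (0.483% higher and 0.401% lower). With the replicate block 2 were higher, ADAM10 being added, and 1 was lower, beside 3.01% and 1.77% (4.78% in all) of all genes. The intervals of the other members were wide. For TIMP4 the 95% interval of the interaction was -0.45 to 0.43, for DPP4 -1.19 to 1.01 and for MMP14 -0.56 to 0.88. MMP15 had 0.73 (95% interval 0.16 to 1.29, adjusted p = 0.392), and ADAMTS4 1.69 (95% interval 0.49 to 2.89, adjusted p = 0.301).

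**Figure D3:**
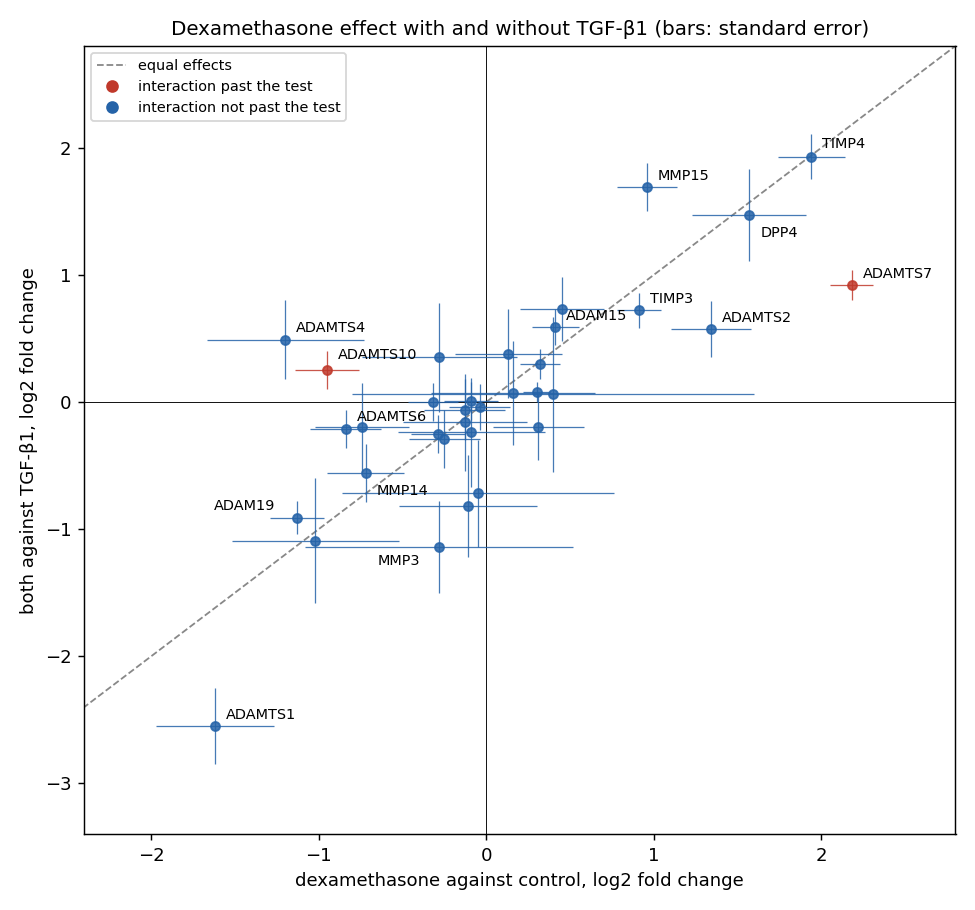
Log2 fold change of dexamethasone after TGF-β1 (both against TGF-β1, vertical axis) beside that without TGF-β1 (dexamethasone against control, horizontal axis) for 34 tested members, with standard errors and a dashed line of equal effects. MMP13 is left out because no control library had a read of it. ADAMTS7 lies below the line at 2.18 and 0.92, ADAMTS10 above it at -0.95 and 0.25, and TIMP4 on it at 1.94 and 1.93.

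Among the inhibitors, TIMP1, TIMP2 and TIMP4 rose with TGF-β1, and TIMP3 and TIMP4 with dexamethasone. The most abundant, TIMP2 (chromosome 17, 78852977 to 78925387) had 2344, 1346 and 2144 CPM with both agents, 2318, 1420 and 2359 CPM with TGF-β1, 1237, 883 and 1110 CPM with dexamethasone and 1307, 953 and 1267 CPM in control cells. Libraries with TGF-β1 lay above those without it, at 0.79 for TGF-β1 against control (SE 0.24, adjusted p = 0.0257). TIMP1 had 299, 195 and 232 CPM with both agents, 296, 198 and 251 CPM with TGF-β1, 189, 150.5 and 140.3 CPM with dexamethasone and 186, 164 and 143 CPM in control cells, and rose with TGF-β1 by 0.60 (SE 0.18, adjusted p = 0.0233). Both TGF-β1 calls were lost without control replicate 2 or 3 or TGF-β1 replicate 1 or 3, and also with scaling by total counts or with no filter. The alternatives ran from 1.58e-07 to 0.101 for TIMP2 and from 0.000272 to 0.101 for TIMP1. Dexamethasone alone gave -0.13 for TIMP2 (95% interval -0.65 to 0.40) and -0.04 for TIMP1 (95% interval -0.43 to 0.36).

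TIMP4 (chromosome 3, 12153068 to 12158912), the scarcest TIMP, had 11.8, 9.92 and 11.9 CPM with both agents, 2.45, 3.09 and 3.14 CPM with TGF-β1, 6.21, 5.95 and 6.22 CPM with dexamethasone and 1.82, 1.24 and 1.64 CPM in control cells. None of the 4 groups overlapped another. Dexamethasone raised it by 1.94 alone (SE 0.20, adjusted p = 1.01e-05) and by 1.93 after TGF-β1 (SE 0.18, adjusted p = 5.45e-06), TGF-β1 raised it by 0.89 (SE 0.22, adjusted p = 0.00578), and both agents together gave 2.82 against control (SE 0.19, adjusted p = 9.3e-08), or 7.06-fold. TIMP3, which stays bound to the matrix and also inhibits ADAM17, ran from 13.9 to 36.9 CPM. It rose with dexamethasone by 0.91 alone (SE 0.13, adjusted p = 0.00029) and by 0.72 after TGF-β1 (SE 0.14, adjusted p = 0.0035), and the log2 ratio of both agents to TGF-β1 was 0.71 in each of the 3 number-matched pairs. TGF-β1 alone gave -0.20 for TIMP3 (95% interval -0.50 to 0.10, adjusted p = 0.29), which passed the test as a fall only with scaling by total counts (adjusted p = 0.0267).

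At the cell surface MMP14, TIMP2 and pro-MMP2 form a complex in which TIMP2 both tethers and inhibits, so the ratio of MMP14 to TIMP2 reads was taken, a quantity chosen after the values of both genes had been seen. It was 0.435, 0.403 and 0.43 with both agents, 0.602, 0.623 and 0.587 with TGF-β1, 0.203, 0.214 and 0.197 with dexamethasone and 0.309, 0.353 and 0.271 in control cells. The means were 0.423 ± 0.0169, 0.604 ± 0.018, 0.205 ± 0.00837 and 0.311 ± 0.0408 in that order of groups (SD, n = 3 each). All 5 pairs of groups compared were without overlap. Each gave an exact two-sided permutation p of 0.1, the smallest that 3 against 3 libraries allow, and 0.1 after adjustment over the 5 pairs. The ratio within a library needs no scaling between libraries. It is a ratio of reads and says nothing of protein amounts.

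**Figure D4:**
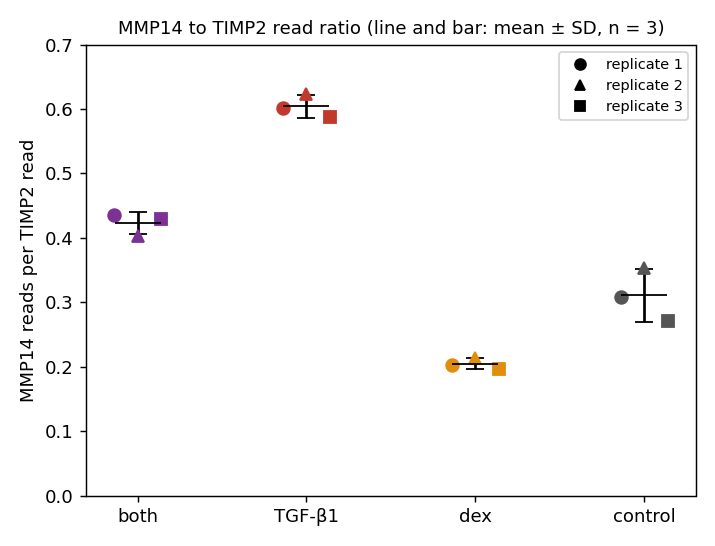
MMP14 reads per TIMP2 read (vertical axis, from 0) in each of 12 libraries by group, a symbol per replicate number, with the mean and SD of 3 libraries. The TGF-β1 libraries lie highest at 0.587 to 0.623, those with both agents at 0.403 to 0.435, the control libraries at 0.271 to 0.353 and the dexamethasone libraries lowest at 0.197 to 0.214.

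FAP and DPP4 are related serine proteases whose genes are neighbours on chromosome 2, 96.5 kb apart with GCG between them, and each followed a different agent. FAP (162170684 to 162243445), a surface marker of activated fibroblasts that cuts denatured collagen, had 97.9, 33.9 and 141 CPM with both agents, 105.5, 26.75 and 131 CPM with TGF-β1, 2.37, 0.446 and 3.45 CPM with dexamethasone and 1.97, 0.466 and 2.42 CPM in control cells. Replicate 2 was lowest in every group, but the libraries with TGF-β1 never overlapped those without it. The TGF-β1 effect was 5.55 (SE 0.89, adjusted p = 0.00115), or 46.9-fold. Within replicate numbers 1, 2 and 3 the log2 ratio of TGF-β1 to control was 5.74, 5.84 and 5.76, so the ratio varied far less than the level. Dexamethasone gave 0.40 alone (95% interval -2.30 to 3.10) and 0.06 after TGF-β1 (95% interval -1.31 to 1.43).

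DPP4 (161992245 to 162074215), which trims incretins, chemokines and other peptides, had 29.98, 25.4 and 32.1 CPM with both agents, 12.3, 3.87 and 14.1 CPM with TGF-β1, 39, 37.6 and 45.8 CPM with dexamethasone and 16.4, 7.29 and 16.7 CPM in control cells. Every library given dexamethasone lay above every library that was not. Dexamethasone raised DPP4 by 1.57 alone (SE 0.34, adjusted p = 0.0123) and by 1.47 after TGF-β1 (SE 0.36, adjusted p = 0.0278). The first call was lost without dexamethasone replicate 3 (adjusted p = 0.0529) and with no filter (0.0658), with alternatives from 2.95e-05. The second was lost without TGF-β1 replicate 1 and without replicate 1 or 3 of both agents. It was lost as well with no filter (0.131) and in a fit of only the groups compared (0.0673), with alternatives from 0.00014. Both agents against control was also called higher (adjusted p = 0.0318). That call was lost without control replicate 2, without replicate 1 or 3 of both agents, with no filter (0.112) and with scaling by total counts (0.0621). The log2 ratios within numbers 1, 2 and 3 were 1.25, 2.37 and 1.45 for dexamethasone against control. TGF-β1 alone gave -0.39 (95% interval -1.21 to 0.43, adjusted p = 0.462).

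Of the fibroblast markers 3 were read often enough to be tested, and with TGF-β1 COL1A1 (4.21, SE 0.20) and PDGFRB (2.34, SE 0.13) rose and THY1 passed only with the block (0.52, SE 0.27, adjusted p = 0.172 without it). The 6 markers (PDGFRA, PDGFRB, THY1, DCN, LUM and COL1A1) summed to 8859 to 10971 CPM with both agents, 9962 to 12378 with TGF-β1, 663 to 997 with dexamethasone and 721 to 1044 in control cells. COL1A1 averaged 9377 CPM with both agents, 10616 with TGF-β1, 514 with dexamethasone and 573 in control cells, and THY1 636, 415, 325 and 291 CPM in the same groups. DCN and LUM, which define resident fibroblasts, had 9 and 7 reads in all 12 libraries together, and LUM was at 0 in the dexamethasone group. Endothelial markers summed to at most 5.1 CPM, and markers of airway secretory and ciliated cells to at most 5.12 CPM. The transcripts listed as abundant in A549 cells were AKR1B10, AKR1C1, SFTPC, CPS1 and SLC6A14. They summed to 18 to 23.3 CPM with both agents, 14.4 to 24.7 with TGF-β1, 26.5 to 35.7 with dexamethasone and 23.7 to 26.5 in control cells. Most of this sum was CPS1, with means of 19.1, 18.7, 22.9 and 23.5 CPM in that order of groups. AKR1B10 averaged 7.78 CPM with dexamethasone and 1.6 CPM in control cells. The part of these markers in the member results was not tested.

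Genes that work with these proteases were read from lists of their own, to be set beside the 32.8% of all genes called with TGF-β1 and the 10.4% called with dexamethasone. Of the 30 other family genes, 7 had enough reads, and with TGF-β1 1 rose (ADAMTS16, 2.90, SE 0.28) and 1 fell (ADAM22, -1.15, SE 0.27), a share of 28.6% that is no higher than that of all genes. With dexamethasone 1 of these 7 rose and 1 fell (ADAMTS3, -1.14, SE 0.22). The riser was ADAMTS8, an ADAMTS with antiangiogenic activity, which had 11 reads with both agents, 2 with TGF-β1, 103 with dexamethasone and 1 in control cells, which for dexamethasone against control is a ratio of 101 (95% counting interval 17.7 to 4032). Without control replicate 3 no control read was left, and the bound was at least 13-fold. ADAMTS8 passed the filter on low counts only through its dexamethasone libraries, so its rise among the 7 tested genes was favoured by that filter. Of the astacins and proprotein convertases, which activate MMPs and process procollagen, 3 of 7 rose with TGF-β1 and 1 fell. FURIN rose by 1.42 (SE 0.11), the procollagen C-proteinase BMP1 by 1.02 (SE 0.09) and PCSK7 by 0.49 (SE 0.07), and PCSK6 fell by 2.45 (-2.45, SE 0.34). With dexamethasone 1 of the 7 fell, FURIN by 0.38 (-0.38, SE 0.11).

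Of 10 other inhibitors, cofactors and clearance receptors, 6 rose and 2 fell with TGF-β1, which is 80% beside 32.8% of all genes. The testican SPOCK1 rose by 5.23 (SE 0.17), with a mean of 536 CPM with both agents, 548 CPM with TGF-β1, 20.1 CPM with dexamethasone and 14.8 CPM in control cells, THBS2 by 2.82 (SE 0.61) and THBS1 by 2.09 (SE 0.28). SPOCK2 fell by 2.31 (-2.31, SE 0.56) and CST3, which is an inhibitor of cysteine proteases, by 0.46 (-0.46, SE 0.09). Dexamethasone changed 1 of the 10, CST3, by 0.57 (SE 0.09), a share close to the 10.4% of all genes. Among 6 ADAMTS-like proteins, which lack the protease domain, 1 rose with TGF-β1 (ADAMTSL3, 1.70, SE 0.24) and 3 fell (ADAMTSL1, -1.39, SE 0.29, PAPLN, -1.39, SE 0.13, and ADAMTSL4, -0.91, SE 0.24), and 2 rose with dexamethasone (PAPLN, 0.90, SE 0.12, and THSD4, 0.59, SE 0.14). These 2 lists had medians of 1.33 and -0.55 with TGF-β1, beside -0.009 over all genes.

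Of the trafficking partners of ADAM10 and ADAM17, 2 of 9 rose with TGF-β1, TSPAN5 by 1.19 (SE 0.10) and TSPAN17 by 0.35 (SE 0.10), and with dexamethasone 1 of 9 fell, RHBDF1 by 0.67 (-0.67, SE 0.10). These shares of 22.2% and 11.1% lie below and close to the 32.8% and 10.4% of all genes. The substrates that ADAM10 and ADAM17 shed moved in both directions, with 6 of 20 higher and 7 lower with TGF-β1 (65%) and 6 higher and 4 lower with dexamethasone (50%). HBEGF rose with TGF-β1 by 2.06 (SE 0.34) and fell with dexamethasone by 2.36 (-2.36, SE 0.45). Its mean level was 5.94 CPM with both agents, 27.8 CPM with TGF-β1, 1.07 CPM with dexamethasone and 6.75 CPM in control cells. AREG rose with dexamethasone by 2.16 (SE 0.16), as did IL6R by 1.38 (SE 0.11) and NOTCH2 by 1.02 (SE 0.13). EREG fell with TGF-β1 by 3.01 (-3.01, SE 0.27) and with dexamethasone by 1.47 (-1.47, SE 0.24), and CX3CL1 fell with dexamethasone by 3.20 (-3.20, SE 0.59). Of the 6 tested relatives of FAP and DPP4, DPP9 rose with TGF-β1 by 0.51 (SE 0.09) and APEH fell by 0.31 (-0.31, SE 0.09). That share of 33.3% is close to the 32.8% of all genes, and with dexamethasone 0 of the 6 were called.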

How the data were processed

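Gene-level read counts were deposited by the authors. Per the labels' protocols the libraries were made from poly(A) RNA with the NEBNext Ultra RNA kit, which does not mark strand, and per the submitters' processing notes reads were counted with featureCounts on hg38. The sources used here do not name the aligner, tool versions, annotation or strand setting. Of 18 count columns, 6 match no labelled sample and were not used.

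The 12 libraries were scaled by TMM and fitted together in edgeR 4.0.16 (R 4.3.3) with a mean per group and no block. Genes passing filterByExpr at a minimum count of 10 were tested in 5 comparisons of groups and their interaction (the log2 effect of dexamethasone after TGF-β1, less its effect alone). The members and lists were chosen with earlier results of these data known. A member has its value in every library if it passed a test at a log2 size of at least 1, or was among the 6 most abundant. Up to 3 genes per list and direction are named.

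Libraries that carry the same number in different groups form 18 pairs. In each, their deviations from the group means correlated, at 0.25 to 0.541, so the numbers pair the samples. The main fit does not use this pairing, so its standard errors, intervals and p-values take in differences between the numbers. Its common coefficient of variation between libraries of a group was 0.1217, beside 0.0577 with the replicate block. A result short of the threshold in the main fit is therefore no evidence that an effect is absent. Within a group, any 2 libraries differed by more than sampling of reads would give (chi-square of 5.98 to 18.1 for each degree of freedom), and all 12 were kept as separate. Total counts behind every value were 5861591 to 19727235. Exon-union lengths gave RPKM. Symbols, positions and start-site sequence are from RefSeq GRCh38.p14 (27745 of 28395 identifiers matched). Alternatives were DESeq2 1.42.0, scaling by total counts, no filter, a fit of only the groups compared, the replicate block and leaving out each library.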

Additional observations from a re-analysis of the deposited data

Results flagged for a closer look

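The effect of dexamethasone on ADAMTS7 differed with and without TGF-β1 by the test of the interaction in edgeR, at -1.26 (SE 0.18, adjusted p = 0.00356). ADAMTS7 rose with dexamethasone in 3 of 3 number-matched pairs on each background, by 0.92 after TGF-β1 and by 2.18 without it.

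The effect on ADAMTS10 differed by the same test in the other direction, at 1.19 (SE 0.24, adjusted p = 0.0332). It was 0.25 after TGF-β1 and -0.95 without it, and without TGF-β1 the level was lower in 3 of 3 number-matched pairs. The call was lost when any 1 of 10 of the 12 libraries was left out, with an adjusted p of up to 0.142, and without replicate 2 in all 4 groups (0.066), whereas that of ADAMTS7 was kept in all 12 omissions.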

How the results depend on the processing

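Of 210 tested results of members, 89 were called, and under the alternatives run 0 of them reversed. The replicate block lost 0 of these calls and added 31. With it the lower calls numbered 8 for dexamethasone against control, 7 for both against TGF-β1 and 6 for both against control, and 2 interactions were higher. Leaving out replicate 2 in all 4 groups, an alternative chosen after the data had been seen, lost 5 calls and gave 4 lower for both against TGF-β1, 5 lower for both against control and 0 higher interactions. The cause was not tested. DESeq2 lost 1 call, scaling by total counts 10, no filter 10, and a fit of only the groups compared 3. Leaving out 1 library lost 24 calls at least once. Over these omissions the higher and lower counts were 16 to 21 and 3 to 4 for TGF-β1 against control, 5 to 7 and 2 to 4 for dexamethasone against control, and 4 to 6 and 2 to 3 for both against TGF-β1. They were 13 to 17 and 1 to 4 for both against dexamethasone, 17 to 21 and 2 to 5 for both against control, and 0 to 1 and 1 for the interaction. Depth limits MMP1, MMP7, MMP10, MMP13 and ADAMTS9 most, since they rest on 26 to 157 reads in all 12 libraries. The folds from at most 3 reads a group, with each library left out, were added after the values were seen.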
